A study of Solanum lycopersicum with 9 samples.

Results

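The loci described here are the most heavily read transcripts of guard cells from the tomato cultivar M82. They are the 200 rows of the deposited expression table with the highest mean normalized count over the 3 M82 libraries, less the loci of 2 clusters of chlorophyll a/b binding genes. Those clusters have 12 loci in the table, of which 7 stood among the 200 rows, so 193 of 23028 rows are members. A normalized count is the number of reads of a locus divided by a size factor of its library. The members were chosen by their M82 values, so their high level in M82 is no result. Neither the table nor the reference annotation at hand pairs a name or a length with any identifier, so loci are given by identifier only, with no role. Reads were not divided by transcript length, so the order of loci is an order by reads and not by molecules.

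Each stoma of a leaf is framed by a pair of guard cells, whose turgor sets how far the pore opens. They were prepared from epidermal peels of blended, fully expanded leaves, and their poly A RNA was sequenced. Every plant was of cultivar M82, given as sp-/sp, and grown in the same room. The 3 groups were M82 itself, pro, and pro∆17, written pro17 in the genotype labels and here. From general knowledge of these tomato lines, and not from the labels, pro has lost the activity of the DELLA protein and pro17 makes a DELLA that gibberellin cannot remove. Each group had 3 libraries. Nothing in the labels ties the libraries of a group to different plants, and a p-value therefore covers only variation among libraries, which may be technical. The labels state neither how pro17 was made, nor how many lines it comprises, nor any watering treatment of these libraries. Because no identifier is annotated, the guard cell label was not checked against marker genes.

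DELLA proteins sit in the nucleus and hold gibberellin responses back until the hormone triggers their breakdown. Tomato has a single DELLA gene, PROCERA. In a leaf cell a small set of genes usually supplies a large part of the messenger RNA, often genes for photosynthesis, protein synthesis and the cell surface. Chlorophyll a/b binding proteins, whose loci were set aside, hold the antenna pigments of the photosystems in chloroplasts. RNA-seq measures shares of a fixed read total, so a rise in one heavily read locus takes reads from the others. In bulk preparations, fewer cells of a type and less RNA per cell cannot be told apart.

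The libraries held 14826561 to 20445679 reads assigned to the listed rows. Over all 20951 rows tested, pro library 3 stood apart, at 122 on the first principal component (47.6% of the variance) against -35.2 to 43.0 for the other 8 libraries. Where a main count or share moved with it by more than 1.5 times or changed direction, the value without pro library 3 stands beside. For single loci that value is given only in part. Solyc11g011260.1, which general knowledge and no file used here identifies as PROCERA, read 3837 ± 90.8 normalized counts in M82, 3750 ± 837 in pro and 6187 ± 1094 in pro17 (mean ± SD, n = 3). It ranked 795 in M82 and is no member. Its transcript level does not report DELLA protein activity and so does not check the labels of pro.

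The members covered a wide range of levels in M82. The highest, Solyc01g111145.1, averaged 143974 ± 24748 normalized counts in M82 and the lowest member, Solyc12g042065.1, 9567 ± 1485 (mean ± SD, n = 3). The first row outside, Solyc09g005720.3 at rank 201, averaged 9500 ± 1800, so the SD of rows at the limit was larger than the gap between them. Of the 193 members, 29 lay within 10% of the lowest. Counting error was small at these depths, 0.836% for a median member and 4.16% for the fewest reads that any member had in any library, 577. Intervals and counting errors given here cover counting only, since PCR copies of one molecule were not told apart.

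In every library the 193 members took a little over 20% of all assigned reads. Their share was 22.9%, 22.6% and 21.7% in M82 libraries 1 to 3. The pro libraries had 21.9%, 23.6% and 22.2%, and the pro17 libraries 22.0%, 21.3% and 21.9%. The groups overlapped, and the highest share was only 1.11 times the lowest. The widest Wilson 95% interval reached 0.0211 percentage points to either side. By group the share was 22.4% ± 0.632 in M82, 22.6% ± 0.924 in pro and 21.8% ± 0.351 in pro17 (mean ± SD, n = 3). Between pro17 and pro, whose libraries played no part in the choice of members, it differed by -0.80 percentage points (exact permutation test, two-sided, p = 0.30, with 0.10 the smallest p possible for 3 against 3). Without pro library 2 the difference was -0.27 points.

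The sum was steady while its parts were less so. The 9 members within ranks 1 to 10 took 4.19%, 4.36% and 4.25% of reads in M82 and 4.13%, 3.98% and 4.08% in pro17. In pro they took 4.18%, 4.61% and 5.38%. All 3 pro libraries lay above all 3 pro17 libraries, a difference of -0.65 points for pro17 against pro at the smallest p the design allows (exact permutation test, two-sided, p = 0.10). Without pro library 3 the pro mean was 4.39% and the difference -0.33 points. With all libraries, Solyc10g075100.2 alone took 1.23% of pro reads and 0.351% of pro17 reads on average. That gap was wider than the one of the 9 members or of all 193. It leaned on pro library 3, as the locus took 0.930%, 0.697% and 2.06% of reads in pro libraries 1 to 3. Without pro library 3 the gap of all 193 members, -0.99 points, was wider than that of this locus. The rest of the 9 together took less on average in pro than in pro17. Members ranked 11 to 50, 51 to 100 and below 100 in M82 took 6.99%, 4.85% and 6.30% of M82 reads on average. The 97 members ranked below 100 had the steadiest share of these 4 classes, between 5.89% and 6.39% in all libraries.

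The 12 left-out chlorophyll a/b binding loci took about 1% of reads and varied more than the members. Their share was 0.950%, 1.15% and 1.05% in M82 and 0.887%, 0.894% and 0.931% in pro17. In pro it was 0.991%, 1.45% and 0.485%, so that the highest and the lowest of the 9 values were both pro libraries. The difference between pro17 and pro was -0.07 points (exact permutation test, two-sided, p = 0.70). It turned on single libraries, at -0.32 points without pro library 3, when both remaining pro libraries lay above all pro17 libraries, and 0.17 points without pro library 2.

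**Figure D1:**
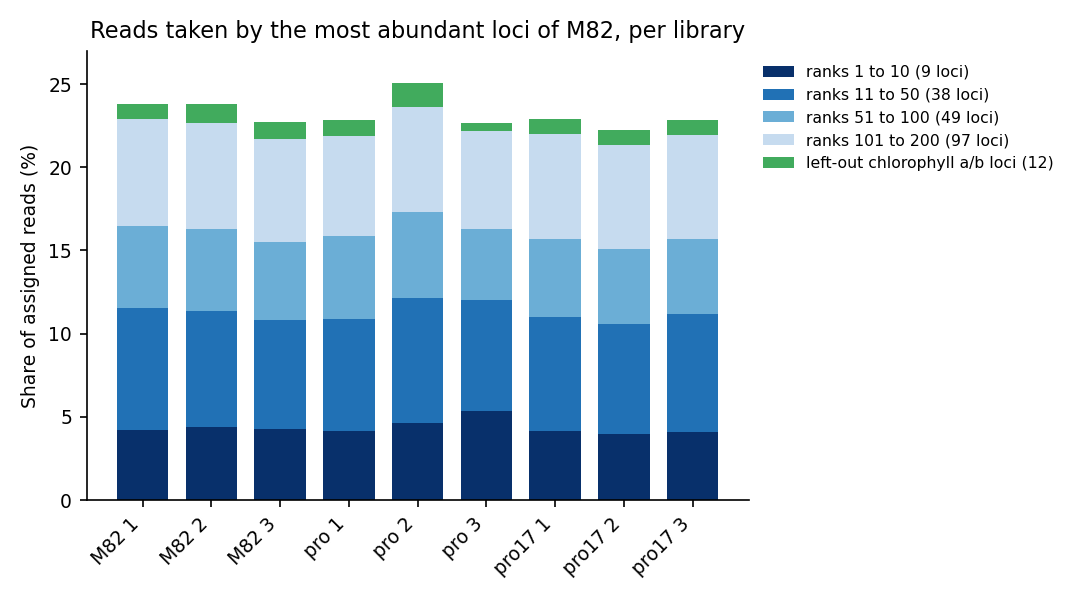
Share of assigned reads (%, vertical axis) in each of the 9 libraries, stacked for the members by their rank in M82 and for the 12 left-out chlorophyll a/b binding loci. The members' total stays between 21.3% and 23.6%, while the chlorophyll a/b binding loci range from 0.485% in pro library 3 to 1.45% in pro library 2.

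Of the 10 leading members of M82, 7 were among the 10 highest rows of pro and 9 among those of pro17. Solyc01g111145.1, rank 1 in M82 and pro17 and rank 2 in pro, read 167841, 145650 and 118430 normalized counts in the M82 libraries. It read 141094, 188773 and 130535 in pro, and 106092, 116739 and 127371 in pro17. It lay higher in each pro library than in any pro17 library, and its log2 fold change of pro17 against pro, -0.38 ± 0.41 (SE), did not pass limma's test (adjusted p = 0.653). It alone took 0.779% of M82 reads, 0.818% of pro reads and 0.652% of pro17 reads on average.

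Solyc10g075100.2, second in M82 and first in pro, stood at rank 7 in pro17. Its normalized counts were 112513, 100502 and 128062 in M82. The pro libraries had 168053, 136907 and 378239. In pro17 they were 70073, 60025 and 58876. All 3 groups were separate from each other, with M82 in the middle and pro library 3 far above the other pro libraries. The log2 fold change of pro17 against pro was -1.71 ± 0.47 (SE) and missed the threshold in limma (adjusted p = 0.0892). The call depended on the test and the libraries: edgeR on the recovered reads passed it (adjusted p = 0.0461), as did DESeq2 (adjusted p = 1.31e-05) and limma without pro library 3 (adjusted p = 0.0365) or pro library 2 (adjusted p = 0.0214). Over all alternatives the adjusted p ran from 1.31e-05 to 0.302.

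The other 8 of the 10 leading members did not pass limma's test in pro17 against pro either. Solyc10g086580.2 read 102589 ± 19664 in M82, 87981 ± 28700 in pro and 105237 ± 2503 in pro17 (mean ± SD, n = 3). Solyc03g034220.3 read 94263 ± 18048, 74423 ± 34021 and 92736 ± 10411 in the same order. In both of these loci pro library 3 was the lowest of the 9 libraries. Solyc09g010800.4 went the other way, with its highest value in pro library 3, 149686, and its lowest in pro library 2, 38952. Its group values were 71432 ± 22460 in M82, 88881 ± 56162 in pro and 93183 ± 15201 in pro17.

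Solyc02g063150.3 had the widest spread of these 8 loci: 74739, 85240 and 50883 in M82, 44617, 92276 and 17439 in pro, and 77470, 69387 and 72204 in pro17. Pro library 2 held its highest value and pro library 3 its lowest. Solyc02g084440.3 was the steadiest of the 10, with a highest library 1.56 times its lowest and group means of 67752 ± 14098, 65544 ± 14215 and 68260 ± 3580 in M82, pro and pro17. Solyc07g047850.3 averaged 63505 ± 3581 in M82, 58133 ± 18634 in pro and 54872 ± 2592 in pro17. Solyc07g064130.2 peaked in pro library 3 at 105554, against 47476 to 73249 in the other 8 libraries. Solyc01g110360.3 was lowest in pro library 3, at 30090, against 42936 to 67722 elsewhere, and all its pro17 libraries lay above all its pro libraries. The log2 fold changes of pro17 against pro at these 8 loci lay between -0.21 and 0.81, with limma adjusted p from 0.472 to 0.969. They moved with pro library 3 and lay between -0.29 and 0.74 without it. The highest, 0.81 at Solyc02g063150.3, fell to 0.19.

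How steady the members were differed between the groups. Among the 3 pro17 libraries every member stayed within 2-fold, 193 of 193, and 187 stayed within 1.5-fold. Among the M82 libraries 182 stayed within 2-fold and 141 within 1.5-fold. In pro the numbers were 98 and 48. Between the 2 pro libraries left without library 3 they were 174 and 132, without library 2 155 and 99, and without library 1 106 and 60, where a pair of libraries has less room to differ than 3. Over all rows tested, low ones included, 93.3% stayed within 2-fold inside pro17, 85.7% inside M82 and 66.3% inside pro. The members' share inside pro was 50.8%, under that background. Without pro library 3 it was 90.2%, over a background of 86.8%. Without pro library 2 it was 80.3% (background 83.4%), and without pro library 1 54.9% (background 71.2%).

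The coefficient of variation of a median member was 6.49% in pro17, 15.2% in M82 and 34.3% in pro, well above the counting error of a median member in each group. On the log2 scale the median SD of the members was 0.10 in pro17, 0.22 in M82 and 0.51 in pro, beside 0.14, 0.21 and 0.36 over all rows tested. Without pro library 3 the median SD of the members in pro was 0.29 and the median coefficient of variation 20.3%, beside 0.23 and 16.2% over all rows. The SD was larger in pro than in pro17 at 182 of 193 members, against 82.6% of the rows tested. It was larger in pro than in M82 at 168 members, against 75.4%. The 200 rows next in rank, 201 to 400, had median SDs of 0.10, 0.21 and 0.52 in pro17, M82 and pro, close to those of the members.

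**Figure D2:**
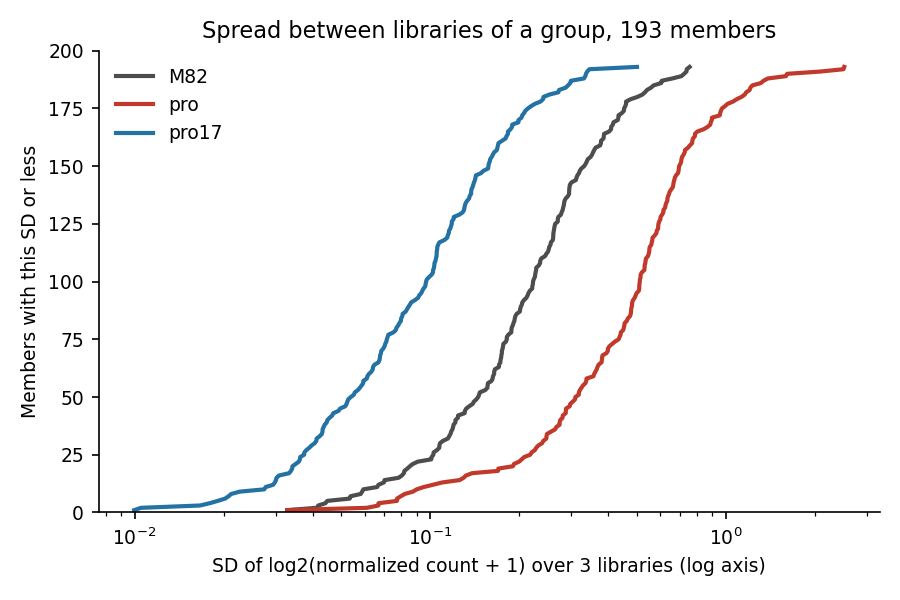
Number of members (vertical axis) whose SD of log2(normalized count + 1) over the 3 libraries of a group is at or under the value on the horizontal log axis, 1 line per group. The pro17 line lies to the left, with a median of 0.10, M82 in the middle at 0.22 and pro to the right at 0.51.

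The wide spread in pro came with 2 libraries that lay on opposite sides of M82. Against the M82 mean, the median ratio of a member was 0.944, 1.12 and 0.706 in pro libraries 1 to 3. At 104 members pro library 2 was above the M82 mean and pro library 3 below it, and at 33 it was the reverse, so 137 of 193 members had the M82 mean between the 2 libraries. The value of pro library 1 lay between the other pro libraries at 144 members. Pro library 3 held the lowest of the 9 values at 110 members and the highest at 45. Pro library 2 held the highest at 82 and the lowest at 16. The M82 mean also chose the members, and no share over all rows stands beside these counts. They describe the 2 libraries at these loci and show nothing particular to the members.

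Pro library 3 differed from M82 by at least 2-fold at 46 members, 12 above the M82 mean and 34 below. In the other 5 pro and pro17 libraries that number was 3 to 7 in all. These counts, too, are against the M82 mean and have no share over all rows beside them. The order of the members by level gave a Spearman correlation with the M82 mean of 0.593 in pro library 3 and 0.872 to 0.889 in the other 5 libraries, across 193 members, which are not independent replicates. On the members' first principal component, which held 67.8% of their variance, pro library 3 stood at 12.0 and pro library 2 at the other end, at -5.48. The 3 pro17 libraries lay between -1.13 and -0.90. On the second, with 16.4%, the pro17 libraries lay between 2.92 and 3.20 and the other 6 libraries between -2.99 and 0.00307.

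**Figure D3:**
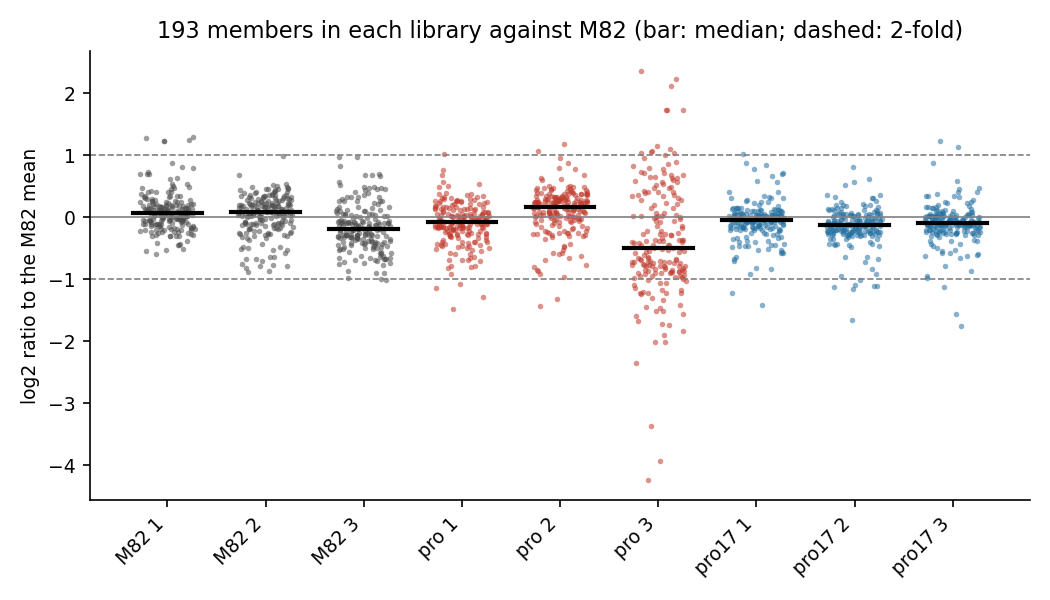
Log2 ratio of each member's normalized count to the M82 mean (vertical axis) in each library; for an M82 library the mean is over the other M82 libraries. Black bars are medians and dashed lines mark 2-fold; pro library 3 has 46 members beyond them, the other pro and pro17 libraries 3 to 7.

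The members farthest from M82 in pro library 3 are named because of these values, which were seen first. Solyc03g123410.1 had the widest range of all members, 32.3-fold. It read 9198, 12948 and 6992 in M82, 3978, 16718 and 517 in pro, and 12060, 11193 and 12649 in pro17. Solyc12g009650.2, with 31.8-fold, read 26671, 44058 and 17670 in M82, 13904, 61834 and 1942 in pro, and 22464, 21490 and 19480 in pro17. In both loci the extremes were pro libraries 2 and 3, and the pro17 values lay inside the M82 range. Neither passed limma's test in pro17 against pro, with log2 differences of 1.88 ± 0.99 (adjusted p = 0.356) and 0.83 ± 1.01 (adjusted p = 0.694). Without pro library 2 the first passed (limma, adjusted p = 0.0230), but without pro library 3 its log2 difference was 0.55 (limma, adjusted p = 0.619). The second changed sign with edgeR, with DESeq2 and without pro library 3. Solyc08g067030.3 was next among the low members, at 1188 in pro library 3 against 7049 to 21151 in the other 8 libraries.

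The members highest in pro library 3 relative to M82 were Solyc08g068150.3, Solyc08g082190.3 and Solyc10g075070.2, at 5.11, 4.69 and 4.33 times the M82 mean. Solyc08g068150.3 read 132279 there and 20908 to 31156 in the other 8 libraries. Solyc08g082190.3 read 119174 there, against 51833 and 13016 in the other pro libraries and 32447 to 46570 in pro17. Solyc10g075070.2 read 135925 there, against 53155 and 19815 in the other pro libraries. These are single-library values and carry no test.

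**Figure D4:**
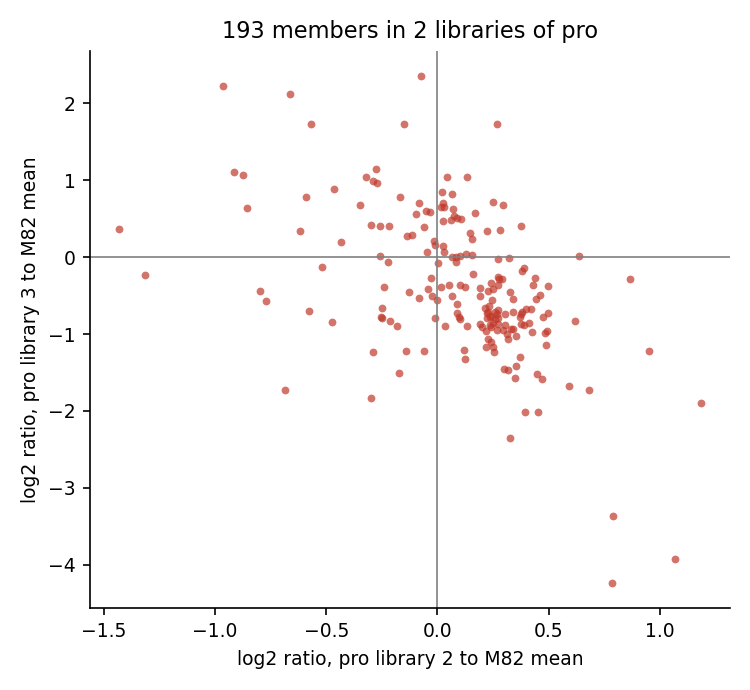
Each of the 193 members by its log2 ratio to the M82 mean in pro library 2 (horizontal axis) and in pro library 3 (vertical axis). The lower right quadrant, above M82 in library 2 and below it in library 3, holds 104 members, and the upper left holds 33.

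Over all 9 libraries, 80 of 193 members (41.5%) stayed within 2-fold from the lowest to the highest value, and 27 within 1.5-fold. The background was 50.2% of rows tested within 2-fold. Without pro library 3 the number rose to 148 of 193 (76.7%, background 65.0%), and without pro library 2 to 97 (50.3%, background 53.3%). The rows of rank 201 to 400 gave 83 of 200 with all libraries and 165 without pro library 3. The number of members within 2-fold thus moved by more than 1.5 times with pro library 3 alone, and whether that library differs for a technical reason was not tested.

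The 5 steadiest members had a highest library 1.15 to 1.22 times the lowest. Solyc02g091560.3 read 22376, 25835 and 22482 in M82, 23991, 24671 and 23580 in pro, and 23320, 24278 and 24031 in pro17, a highest value 1.15 times the lowest. All pro and pro17 values lay inside the M82 range. Solyc10g005080.3 averaged 19633 ± 818 in M82, 20372 ± 1292 in pro and 21348 ± 1056 in pro17, and Solyc10g008980.3 19641 ± 963, 19488 ± 1126 and 21226 ± 811 (mean ± SD, n = 3). Solyc08g061320.3 and Solyc07g056540.3 ranged over 1.21-fold and 1.22-fold. Pro library 3 was the lowest library in 1 of these loci, Solyc10g008980.3, and in none the highest. In Solyc08g061320.3 and Solyc07g056540.3 all pro17 libraries lay above all pro libraries. None of the 5 passed in pro17 against pro (limma adjusted p from 0.557 to 0.980).

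Between the lines with opposite DELLA activity, 2 of 193 members passed limma's test at an adjusted p of 0.05 over all rows, both higher in pro17. That is 1.04% of the members, beside a background of 3.40% of rows tested (712 of 20951). Over those rows 2.19% passed as higher in pro17 and 1.21% as lower. With only the 6 libraries compared in the fit the same 2 members passed (background 1.30%). Solyc12g094620.2 read 9136, 7553 and 12434 in M82, 5491, 5690 and 6512 in pro, and 19619, 16982 and 21390 in pro17. The 3 groups did not overlap, with M82 between the others. The pro17 mean was 3.28 times the pro mean (limma, log2 difference 1.71, SE 0.21, adjusted p = 0.00394). All 16 alternatives kept the call, with adjusted p between 2.21e-13 and 0.0329.

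Solyc07g055060.3 read 13203, 9227 and 6986 in M82, 7857, 6573 and 6055 in pro, and 16850, 14607 and 14653 in pro17. Pro17 lay above every other library, and M82 overlapped pro. The pro17 mean was 2.25 times the pro mean (limma, log2 difference 1.18, SE 0.24, adjusted p = 0.0332). Leaving out any of 5 libraries ended this call: the adjusted p was 0.0683 when M82 library 2 was dropped, 0.0701 for pro library 1, and 0.141, 0.119 and 0.124 for pro17 libraries 1 to 3. Both loci stood near the limit of the choice, at ranks 196 and 194 by the M82 mean. Ranked by the M82 median they came at 210 and 207 and would be no members.

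No member passed in the other direction, lower in pro17, with limma. Over both directions 19 members (9.84%) had an unadjusted p under 0.05, beside 18.1% of rows tested. EdgeR on the recovered reads called 3 members (1.55%, background 3.16%), the third being Solyc10g075100.2, lower in pro17. DESeq2 called 14 (7.25%), 5 higher and 9 lower. Its background of 7.89% is over 22984 rows without the expression filter, and so not like those of limma and edgeR. On simulated counts 23.0% of DESeq2's calls in this comparison were false, against 5.79% of limma's. That simulation gave each gene the same spread in all groups and changed only 200 genes. The real spread differed between pro and pro17, so these false shares cannot be carried over to the calls here. Leaving out pro library 2 gave 16 of 193 members with limma, a share under the background of 15.3%. Leaving out pro library 3 gave 6 of 193, also under the background of 5.39%. Both counts include the 2 loci. The log2 fold changes of single members ran from -1.71 to 1.88, the latter at Solyc03g123410.1, where it was 0.55 without pro library 3. The median of the members was 0.05, beside 0.01 over all rows tested, and had no stable sign. It was 0.16 without pro library 2, -0.12 without pro library 3, -0.026 with edgeR and -0.039 with DESeq2.

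At 34 members (17.6%) the pro17 and pro libraries did not overlap, 12 higher (6.22%) and 22 lower (11.4%) in pro17, against a background of 22.9% (11.7% higher and 11.2% lower). Without pro library 3 this held at 76 members (39.4%, background 37.1%), 18 higher (9.33%) and 58 lower (30.1%), beside 18.2% and 18.9% of rows tested. Without pro library 2 it held at 102 (52.8%, background 51.1%), 64 higher (33.2%) and 38 lower (19.7%), beside 26.3% and 24.8%. The balance of directions thus turned with the pro library left out, and that library moved the count by over 1.5 times. The members' totals lay near or under the background in all 3 cases. By direction, the lower members exceeded it without pro library 3 and the higher members without pro library 2.

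**Figure D5:**
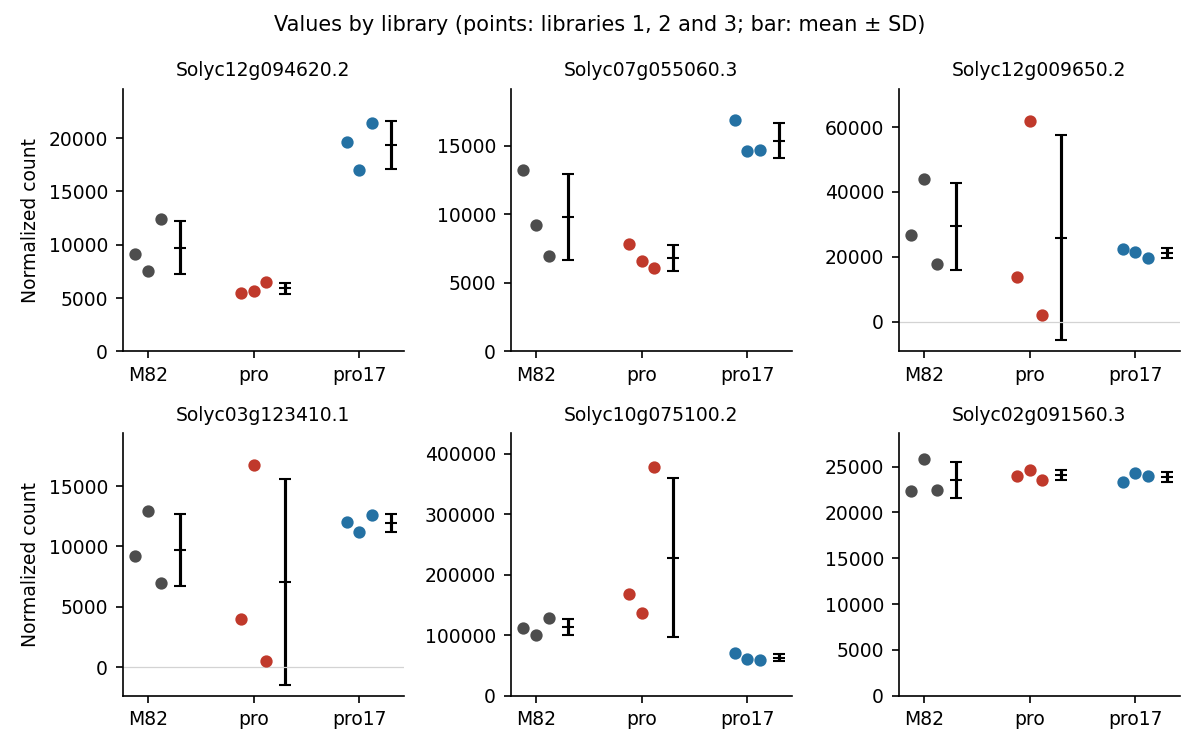
Normalized counts (vertical axis, linear scale) of 6 members in the 3 libraries of each group, with mean ± SD beside them. Solyc12g094620.2 and Solyc07g055060.3 are higher in all pro17 libraries than in any pro library; Solyc12g009650.2 and Solyc03g123410.1 spread over 31.8-fold and 32.3-fold; Solyc02g091560.3 stays within 1.15-fold.

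Comparisons with M82 use the values that chose the members and are given as a description. A row picked for a high M82 mean is more likely to lie lower elsewhere, so nothing is read from the side on which the members fell. The pro mean was within 2-fold of the M82 mean at 189 of 193 members (background 94.9%) and the pro17 mean at 190 (background 95.8%). The median ratio was 0.938 for pro and 0.941 for pro17, and 80% of the members lay between 0.787 and 1.25 times M82 in pro and between 0.737 and 1.11 in pro17. Both comparisons share the M82 libraries.

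The 4 members whose pro mean was at least 2-fold above M82 were Solyc08g068150.3 (2.42-fold), Solyc08g082190.3 (2.41), Solyc10g075070.2 (2.22) and Solyc10g075100.2 (2.0). In all 4 the highest of the 9 values was in pro library 3, as given above. Without that library they stood at 1.08, 1.27, 1.16 and 1.34 times M82, and 0 members were at least 2-fold above. The 3 members at least 2-fold below M82 in pro17 were Solyc07g055950.3, Solyc05g053550.3 and Solyc02g086970.3, named here because of these values. Solyc07g055950.3 read 12724, 17981 and 16697 in M82 and 5949, 4998 and 4709 in pro17, 0.330 times M82. In pro it read 20813, 35901 and 4253, so that pro library 3 lay under all pro17 libraries and the other pro libraries above all M82 libraries. Without pro library 3 it passed as lower in pro17 than in pro (limma, adjusted p = 0.00192). Solyc05g053550.3 averaged 10066 ± 3511 in M82 and 4593 ± 1023 in pro17, and Solyc02g086970.3 21687 ± 9071 and 10184 ± 1007 (mean ± SD, n = 3).

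With limma 0 members passed against M82 in pro (background 0.210%, 0.0764% higher and 0.134% lower) and 0 in pro17 (background 0.119%, 0.0811% higher and 0.0382% lower). At an unadjusted p under 0.05 there were 2 (1.04%) and 5 (2.59%), beside 6.83% and 7.79% of rows tested. EdgeR called 0 and 0 (background 0.181% and 0.0811%). DESeq2 called 0 and 1, the latter 0.518% of the members (background 0.801% and 1.37%, over 22984 rows without the expression filter). That locus was Solyc12g094620.2. Libraries did not overlap at 8 members (4.15%) in pro against M82 (background 9.01%, 4.44% higher and 4.57% lower). They did not overlap at 41 (21.2%) in pro17 against M82, 11 higher (5.70%) and 30 lower (15.5%). The background was 21.1%, 10.5% higher and 10.7% lower.

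Of the 200 highest rows of M82, left-out loci included, 178 were among the 200 highest of pro and 187 among those of pro17. Single libraries gave 177, 173 and 136 in pro and 183, 187 and 186 in pro17. An M82 library set against the mean of the other M82 libraries gave 185, 180 and 180. The pro17 libraries thus shared about as many rows with the mean of all 3 M82 libraries as an M82 library did with the mean of the others. The latter mean rests on fewer libraries, so the counts are not strictly alike. Pro library 3 shared fewer. In shares of the 200 rows, pro overlapped M82 by 89.0%, or 92.5% without pro library 3 and 81.5% without pro library 2. Counting only members, 171 of 193 ranked within 200 in pro and 181 in pro17, and the lowest ranks reached were 395 and 549.

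Among the M82 libraries themselves, 52 of 193 members differed by 1.5-fold or more, of which 21 were highest in library 1, 18 in library 2 and 13 in library 3. In M82 library 1, 7 members read over 1.5 times both other M82 libraries, a rule set after the values were seen. The highest of them, Solyc01g058500.3, read 76448 in M82 library 1, 32193 and 33165 in the other M82 libraries, and 57589, 40725 and 26518 in pro. In pro17 it read 31639, 21612 and 32912. Solyc00g068980.2 followed the same course, with 60748, 26270 and 23217 in M82, 44033, 32349 and 19726 in pro, and 25449, 17298 and 26520 in pro17. Together the 7 took 1.58% of reads in M82 library 1, 1.18% in pro library 1 and between 0.510% and 0.811% in the other 7 libraries. Their mean rank in M82 therefore rests in part on 1 library.

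The members were spread over all 12 chromosomes named in the identifiers, with 2 members under number 0. Chromosome 1 held 25 of them (13.0%, beside 12.7% of rows tested) and chromosome 2 held 22 (11.4%, beside 10.6%). Chromosomes 7 and 10 held more than their part, 10.9% beside 7.36% and 9.84% beside 6.63%, and chromosome 3 less, 7.25% beside 10.5%. These shares carry no test.

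Few members lay next to each other. Locus numbers at most 50 apart gave 8 pairs and no longer run, 16 members in all. Solyc10g075070.2 and Solyc10g075100.2, neighbours on chromosome 10 that took 0.791% of M82 reads, both had their highest value in pro library 3. Solyc01g111145.1 and Solyc01g111170.3 formed another pair and together took 0.996% of M82 reads. Neighbours did not share a common course. The correlation between the 2 loci of a pair ranged from -0.87 to 0.88, with 0.83 at the chromosome 10 pair and -0.61 at the Solyc01g111145.1 pair. Whether reads were split between near-identical copies cannot be seen in the table.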

How the data were processed

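Poly A RNA of guard cell preparations was sequenced in 9 libraries. The authors' deposited table holds a signal value for 23028 rows, headed normalized counts per the file headers. The submitters' processing notes list cutadapt, the aligner STAR (2.4.2a), the counter HTSeq and also DESeq2. Not given in the sources used here are the build, the annotation and the strand setting, so antisense and near-identical loci cannot be told apart. One identifier is on 2 rows, which were kept apart. The authors' own comparisons were not used. Groups follow the sample descriptions. For pro17 libraries 2 and 3 the number behind the delta in the title differs from the genotype label.

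Within a tolerance of 0.006, 100.0% of values were whole multiples of 1 step per library, against at most 1.46% for unrelated values, which gave whole reads and library totals of 14826561 to 20445679. Only pro library 1 had a step so near 1 that its values are almost the reads themselves. Shares were computed on these reads.

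Groups were tested with limma (3.58.1, under R 4.3.3, with its trend option) on log2(normalized count + 1), all 9 libraries in one fit, Benjamini-Hochberg adjustment over the 20951 rows that passed edgeR's expression filter, and a threshold of 0.05. All 193 members passed that filter. DESeq2 was run without it, so its backgrounds are over 22984 rows, low ones included. Fold changes given as log2 are on that scale. EdgeR 4.0.16 (quasi-likelihood, TMM) and DESeq2 1.42.0 on the recovered reads were alternatives, as were other pseudocounts (0.1 and 5), no filter, 6 libraries only, a replicate block, other scalings, other readings of the rule for members and leaving out each library, with the members kept.

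Between M82 and pro, the deviations of same-numbered libraries from their group means correlated at 0.133, 0.503 and 0.523, all over 0.1, the bar for pairing. M82 library 1, however, correlated more with pro library 2 (0.259) than with pro library 1. Deviations within a group also depend on each other, so pairing by number between M82 and pro is a hint from the data and not settled. With the replicate number as a block 0 members passed in that comparison, as without it (background 0.162%).

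Tested on simulated counts for pro17 against pro with 200 changed genes among 20951, limma found 19.4% of the genes changed 2-fold, 68.7% of those changed 4-fold and 83.3% of those changed 8-fold. Of its calls 5.79% were false, and of DESeq2's 23.0%. Each simulated gene had the same spread in all groups, unlike the real pro and pro17 libraries, so these rates hold for that setting only.

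The members, lists and tests were chosen with earlier results of these data known. Named loci were the 10 members highest in M82, those with the 2 highest and 2 lowest log2 fold changes passing in pro17 against pro (none passed as lower), the 5 with the smallest and the 2 with the largest ratio of highest to lowest library; others are said to be chosen by their values. The gene groups and marker lists planned by description are void, because 0 identifiers matched the reference table.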

Additional observations from a re-analysis of the deposited data

How the results depend on the processing

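In pro17 against pro, the 2 members that passed became 14 with DESeq2 and 0 when members were ranked by the M82 median (17 at an unadjusted p under 0.05, beside 18.1% of all rows; 1 with edgeR and 12 with DESeq2), because both loci then fell outside the list. The list by median shares 186 of its 193 loci with the list by mean. Leaving out single libraries gave 1 to 16. With the replicate number as a block 2 passed, the same 2 loci. The labels do not say what the numbers mean. For pro17 against pro and against M82, same-numbered deviations correlated at 0.0219 to 0.197, not all over 0.1, the bar for pairing; in 15 of 18 cases over all 3 groups a library correlated best with its own number, a hint from the data that the numbers carry something shared. The block changed no member's call in any comparison. Against M82, leaving out single libraries gave 0 to 1 passing members in each line. In pro17 there were 2 with only the 6 libraries compared and 1 with DESeq2 (background 1.37%). The leave-out and 6-library fits against M82 have no share over all rows beside them, and M82 values chose the members. Nothing is read from these counts. Members within 2-fold over all libraries numbered 80, or 27 at a limit of 1.5-fold and 80 to 148 without single libraries. The share of M82's highest rows also highest in pro17, 93.5%, was 89.25% for 400 rows and 91.5% to 94.0% without single libraries; in pro, 89.0% was 87.75% and 81.5% to 92.5%. The difference in read share between pro17 and pro, -0.80 points, ran from -1.14 to -0.27 without single libraries.

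Among named loci that did not pass, log2 fold changes of pro17 against pro changed sign when single libraries were left out. They ran from -0.23 to 0.74 at Solyc09g010800.4, from -0.017 to 0.25 at Solyc02g084440.3, from -0.29 to 0.19 at Solyc07g047850.3, from -0.36 to 0.074 at Solyc07g064130.2, from -0.027 to 0.0053 at Solyc02g091560.3 and from -0.47 to 2.02 at Solyc12g009650.2, which was also -0.27 with edgeR and -0.29 with DESeq2. The cause was not tested. At these read depths counting error does not limit the members; the 3 libraries per group and the spread in pro do.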
